A study of Homo sapiens with 6 samples.

Results

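The cells described here are HEK293 cells given only DMSO vehicle, the control condition of an RNA-seq study of HEK293 cells. Members were chosen by label: the 3 control libraries, replicates 1, 2 and 3, of 6 RNA-seq libraries in all. Within them the members are the 30318 genes with at least 1 count, of 57820 gene rows in the table. The cells came from a repository stock of HEK293, an established human line, and carried no stated genetic change. They received vehicle for 12 h under basal culture, without heat shock. Libraries prepared from total RNA were sequenced as paired-end reads, and how RNA was selected for them is not given in the sources used here. Each control library is a separate biological replicate per the series' design text, and the 3 control libraries carry batch labels 1, 2 and 3, so batch and replicate cannot be told apart. The minocycline-treated libraries were not analysed here. With 1 group there was no comparison to test, so all values are levels and their spread among the 3 libraries.

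HEK293 was derived from human embryonic kidney cultures into which sheared adenovirus DNA was introduced, and it is grown as an adherent line. The kidney origin is known from the tissue that was cultured, while the identity of the cell that gave rise to the line has been debated, with nephron precursors, neuronal cells and adrenal cells all named as candidates. The line is a common host for expressing receptors and channels, so which of them it already transcribes matters to those who use it. A cell's lineage is usually read from transcription factors that act in its embryonic origin and from genes of specialised function, such as a kidney transporter or a synaptic protein.

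Control replicate 1 stood apart from the other two libraries. The libraries held 17395826 to 17835756 counts, and 1 count corresponded to 0.0525 to 0.0590 CPM (counts scaled to a common library size with TMM factors of 0.9501 to 1.07). Replicate 1 had counts in 26612 genes, against 25428 in replicate 2 and 25382 in replicate 3. Among 15352 genes with a mean of at least 1 CPM, 1542 genes, or 10.0%, were lower in replicate 1 than in both other libraries by more than 1.5-fold. A further 1643 genes, or 10.7%, were higher by the same measure. The corresponding numbers were 144 lower and 120 higher for replicate 2, and 340 lower and 181 higher for replicate 3. Each library differed from the others by more than counting noise (chi-square per degree of freedom 6.74 to 78.9 over pairs), and no pair agreed within counting noise.

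The deviation of replicate 1 followed transcript length. Protein-coding genes were put in 10 classes by the length of their canonical transcript. In the shortest class, up to 1347 nt, the median log2 ratio of replicate 1 over the mean of replicates 2 and 3 was -0.58. In the longest class, from 7772 nt, it was 0.54. Replicates 2 and 3 differed in the same order but less, from -0.13 to 0.11 for replicate 2 over replicate 3. Across 12931 genes the ratio for replicate 1 correlated with log10 length at Pearson's r = 0.576 and Spearman's rho = 0.599, a description only, since genes share the same libraries. Transcript GC content moved with it as well: the median log2 ratio went from 0.39 in the lowest of 5 GC classes to -0.34 in the highest, and from 0.26 to -0.19 once the median of each gene's length class was subtracted. The part of transcript length, GC content or batch in this deviation was not tested. Levels are therefore given for each library, and the place of replicate 1 is stated where it matters.

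**Figure D1:**
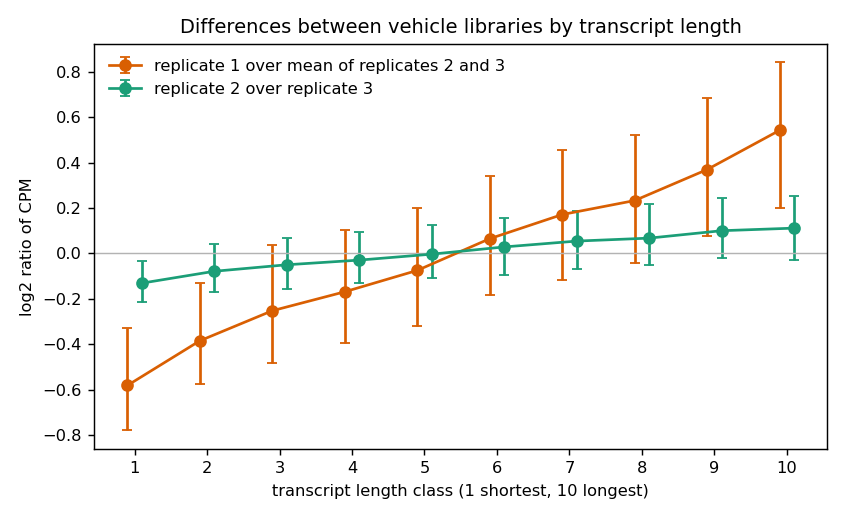
Median log2 ratio of CPM (vertical axis) in 10 classes of canonical transcript length (horizontal axis, 1 shortest and 10 longest) for control replicate 1 over the mean of replicates 2 and 3 and for replicate 2 over replicate 3. Points are medians over protein-coding genes with a mean of at least 1 CPM, bars span the middle quartiles, and the replicate 1 line climbs from -0.58 to 0.54 while the other stays between -0.13 and 0.11.

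The transcriptome was broad. A gene was called expressed when it reached 1 CPM in each of the 3 libraries, and at the floor when no library held more than 3 counts, which is the limit that a count of 0 allows. All other genes were between these states. Of the 30318 genes with a count, 14475 were expressed, or 47.7%, and 7983 were at the floor. Of 19404 protein-coding genes, 12502 were expressed, or 64.4%, 2753 were between and 4149 were at the floor, or 21.4%. Long noncoding RNA genes were expressed less widely, with 1005 of 12805. Protein-coding genes held 96.7% of the counts and long noncoding RNA genes 1.04%. The 20 protein-coding genes just inside the 1 CPM limit had 1.00 to 1.05 CPM in their lowest library, and the 20 just outside it had 0.993 to 0.997 CPM.

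Levels spanned several orders of magnitude. The median expressed protein-coding gene had 33.0 CPM, and the 10th and 90th percentiles were 3.92 and 157 CPM. At least 10 CPM was reached by 9793 of these genes, at least 100 CPM by 2241 and at least 1000 CPM by 85. Counting favours long transcripts, so levels of different genes are compared below as CPM per kilobase of canonical transcript, except where places by CPM, uncorrected for length, are named as such. On that scale the median expressed protein-coding gene stood at 8.81 CPM per kb. Values written with ± are the mean and SD over the 3 libraries (n = 3), and CPM or counts given as a run of values are those of replicates 1, 2 and 3 in that order.

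No small group of genes dominated the libraries. The 10 most abundant genes held 4.52% ± 0.715 of the counts (SD, n = 3), with 3.73% in replicate 1 (95% Wilson interval 3.72 to 3.74), 4.73% in replicate 2 (4.72 to 4.74) and 5.11% in replicate 3 (5.10 to 5.12). The number of genes that held 50% of the counts was 1294, 1030 and 939 in replicates 1, 2 and 3, or 1088 ± 184 (SD, n = 3). Replicate 1 was thus the least concentrated library on both measures. These intervals cover counting error only.

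**Figure D2:**
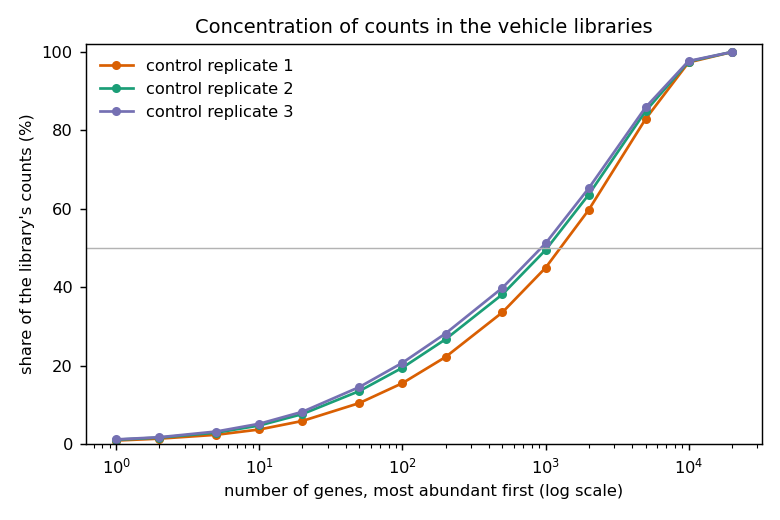
Cumulative share of a library's counts (vertical axis, percent) against the number of genes, ranked from the most abundant (horizontal axis, log scale), for the 3 control libraries. The grey line marks 50%, which replicates 3, 2 and 1 reach at 939, 1030 and 1294 genes.

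By CPM, with no correction for length, the first gene was EEF1A1, which encodes the elongation factor that brings aminoacyl-tRNA to the ribosome (ENSG00000156508.13, chr6:74199031-74235310, minus strand, GRCh37). It stood at 8522, 11419.7 and 12651 CPM in replicates 1, 2 and 3. TRIM28, the corepressor that silences retroelements with KRAB zinc finger proteins, followed at 4501, 5379.8 and 5803 CPM. Ribosomal proteins filled 10 of the first 20 places by CPM and 46 of the first 100. Those in the first 20 included RPS4X, RPL13A, RPS2, RPL8, RPL4, RPL13, RPL3, RPL28 and RPS3. The others were EEF2, the translocase of the ribosome; the cytoskeletal actins ACTG1 and ACTB; the glycolytic enolase ENO1; the mitochondrial cytochrome c oxidase subunits MT-CO1 and MT-CO3; RACK1, a scaffold on the small ribosomal subunit; and PTMA, a nuclear acidic protein. Of these 20 genes, 11 were lower in replicate 1 than in both other libraries by more than 1.5-fold, beside 10.0% of all genes with a mean of at least 1 CPM.

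Ranking per kilobase kept the same kinds of gene at the top. The first 10 protein-coding genes included RPS2, RPLP2, MT-CO3, RPL13A, RPL35, EEF1A1 and RPL8, and 8 of the 10 are ribosomal proteins. RPS2 stood at 3711 ± 1179.6 CPM per kb, and EEF1A1, first by CPM, was 8th here at 3093 ± 603 CPM per kb. With the summed length of all annotated exons in place of the canonical transcript, 5 of these 10 genes remained in the first 10, and the mitochondrial MT-CO3 and MT-CO1 took the leading places. Many abundant genes, EEF1A1, ACTB, ACTG1, PTMA and ribosomal proteins in particular, have near-identical processed pseudogenes, and how reads shared with such copies were counted is not given in the sources used here. Their levels are uncertain to that extent. Rows annotated as processed pseudogenes held 0.686% of the counts.

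All 79 cytosolic ribosomal protein genes with a matched row were expressed. Ribosomal proteins assemble with ribosomal RNA into the small and large subunits, and their mRNAs are known to share a start with a cytosine followed by a run of pyrimidines, the terminal oligopyrimidine tract, through which growth signals control their translation. Together they took 7.42% of the counts in replicate 1 (95% Wilson interval 7.41 to 7.44), 11.1% in replicate 2 (11.1 to 11.1) and 12.3% in replicate 3 (12.3 to 12.3), or 10.3% ± 2.55 (SD, n = 3). The median member had 1008 CPM and 1177 CPM per kb. Within the list, 54 of 79 genes were lower in replicate 1 than in both other libraries by more than 1.5-fold and 0 were higher, beside 10.0% and 10.7% of all genes. Their median log2 ratio of replicate 1 over the others was -0.78, and -0.27 after the median of each gene's length class was subtracted. The canonical transcripts of this list have a median length of 785 nt, against 3413 nt for protein-coding genes at 1 CPM or more. Low levels of RPS18 at 2.41, 5.20 and 4.66 CPM, RPL17 at 25.6, 25.4 and 27.7 CPM and RPS10 at 15.3, 15.9 and 16.5 CPM concern genes that lie in the chromosome 6 stretch described below or whose exons overlap another gene on the same strand.

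The bases around the transcription start are shown for 5 abundant genes, most of them of the translation machinery, and for 3 genes that were higher in replicate 1. Whether the start sequence had a part in the deviation of replicate 1 was not tested. These examples were chosen with their values known, and the shares over whole sets follow them. Each run is 30 bases long, 5′ to 3′ on the transcribed strand, with 15 bases before the start and 15 from it, taken from RefSeq on GRCh38.p14. Where a gene has several listed starts, as ITGAV has, the first is used. Capitals mark a match to CTTTT or CTTTC, which EEF2 and the 3 genes higher in replicate 1 lack in the bases shown. From its start, however, EEF2 does read a cytosine followed by a run of pyrimidines. The 2 motifs thus cover only some such runs, and the shares below are not shares of genes with a terminal oligopyrimidine tract.
EEF1A1: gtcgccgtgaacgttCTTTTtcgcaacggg
RPL13A: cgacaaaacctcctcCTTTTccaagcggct
TPT1: agcggctgagtcggcCTTTTccgcccgctc
NACA: acgctctcgctcggtCTTTCtgccgccatc
EEF2: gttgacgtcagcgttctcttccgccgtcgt
ITGAV: ggcgctcaccccggcagtccccagcctcag
FN1: tcccggcgctcggacgcccgcgccggctgt
CCN2: gcccgccccaaactcacacaacaactcttc
The coordinates are chr6:73521018-73521047 (minus strand) for EEF1A1, chr19:49487593-49487622 (plus strand) for RPL13A, chr13:45341169-45341198 (minus strand) for TPT1, chr12:56725285-56725314 (minus strand) for NACA, chr19:3985449-3985478 (minus strand) for EEF2, chr2:186590041-186590070 (plus strand) for ITGAV, chr2:215436054-215436083 (minus strand) for FN1 and chr6:131951358-131951387 (minus strand) for CCN2. TPT1, which encodes the translationally controlled tumour protein, stood at 423, 704 and 812 CPM, and NACA encodes a subunit of the nascent polypeptide-associated complex. The motif search covered CTTTT and CTTTC from 10 bases before to 15 bases after any listed start, and the 2 motifs cannot begin at the same base. On the transcribed strand a match was found for 45 of the 63 ribosomal protein genes with a promoter entry, or 71.4%, against 8.30% of 27305 genes with an entry and 8.65% of 10185 expressed protein-coding genes. On the opposite strand the shares were 3.17%, 5.65% and 4.61%. With only the first listed start of each gene, a match was found for 40 of the 63 ribosomal protein genes, or 63.5%. The shares were then 6.45% of all genes with an entry and 5.57% of expressed protein-coding genes. A match describes letters in this window and is not a measured start site.

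The remaining abundant groups were expressed almost without gaps. All 13 mitochondrial mRNAs were expressed, and the mitochondrial genome took 1.17% to 1.44% of the counts over the 3 libraries. MT-CO1, the catalytic subunit of cytochrome c oxidase, stood at 3144, 3521 and 3124 CPM, with replicate 2 highest. MT-ND4, a subunit of respiratory complex I, varied more, at 771, 1664 and 1256 CPM. MT-CO3, another cytochrome c oxidase subunit, stood at 2020.1, 2641 and 2944 CPM and was highest in replicate 3, so the order of the libraries was not the same for all mitochondrial genes.

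All 16 glycolytic genes listed were expressed, with a median of 278 CPM per kb. ENO1 led on the per-kilobase scale at 1817 ± 274 CPM per kb, followed by GAPDH at 1479 ± 388 CPM per kb and PKM at 891 ± 85.1 CPM per kb. Both lactate dehydrogenase subunit genes were present, with LDHA, the muscle-type subunit, at 1160.0, 1248 and 1305 CPM and LDHB, the heart-type subunit, at 836, 932 and 982 CPM. Among isoenzymes of one step, aldolase ALDOA stood at 819 ± 172 CPM per kb and ALDOC at 6.04 ± 1.82 CPM per kb, and hexokinase HK1 at 47.997 ± 1.55 CPM per kb and HK2 at 3.02 ± 0.427 CPM per kb. The intervals of mean ± SD did not overlap for either pair, although ALDOA's exons overlap another same-strand gene over 42.8%.

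The chaperone list was also complete at 16 of 16, and several of its genes were highest in replicate 1, where the ribosomal proteins were lowest. HSP90AB1, the constitutive cytosolic HSP90, had 2099, 1864 and 2092 CPM, close in all 3 libraries. HSPA8, the constitutive HSP70, had 1371, 693 and 838 CPM, and the stress-responsive HSP90AA1 had 1759, 1129 and 1130.1 CPM. HSPA5, the HSP70 of the endoplasmic reticulum, had 311, 187 and 165 CPM. HSPA8, HSP90AA1, HSPA5 and HSP90B1 were each higher in replicate 1 than in both other libraries by more than 1.5-fold, 4 of 16, and 0 were lower, beside 10.7% and 10.0% of all genes. The list's median log2 ratio was 0.10, and 0.29 after subtraction of the length class median. None of the 8 chaperonin subunit genes was apart in replicate 1 by this measure, and CCT5 had 457, 441 and 461 CPM.

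Cytoskeletal genes were expressed in 15 of 16 cases. Thymosin TMSB10 stood at 1288 ± 521 CPM per kb and TMSB4X at 341 ± 116 CPM per kb, so the first exceeded the second on the length-corrected scale. The beta-tubulin genes were led by TUBB4B at 526 ± 107 CPM per kb, while TUBB was at 0 counts in each library, a value discussed with the chromosome 6 stretch. All 18 chromatin and nuclear RNA-binding genes were expressed, among them NPM1, a nucleolar histone chaperone, at 1002, 1057 and 1028 CPM, and YBX1, a cold shock domain RNA-binding protein, at 1719.7, 2306 and 2423 CPM. NPM1 was nearly level over the 3 libraries, whereas YBX1 was lowest in replicate 1.

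Some noncoding RNAs were seen as well, with 10 of 12 matched members expressed. The snoRNA host transcripts SNHG5 at 145, 219 and 244 CPM and GAS5 at 83.3, 114 and 129.6 CPM were the highest per kilobase. The long nuclear RNA NEAT1, the scaffold of paraspeckles, had 318, 210.2 and 173 CPM and MALAT1 had 82.8, 38.9 and 41.96 CPM, both higher in replicate 1 by more than 1.5-fold. TERC, the telomerase RNA, was between the limits at 0.0525, 0.292 and 0.236 CPM. How RNA was selected is not given in the sources used here, and RN7SK and RN7SL2 lie within other annotated genes over 99.1% and 100% of their exon bases.

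A few genes that nearly all cells transcribe had no or almost no counts, and this sets a limit on what a floor value means in these files. In chr6:29000000-34000000 (GRCh37), a window chosen after its values were seen, 124 of 180 protein-coding genes were at the floor, or 68.9%, against 142 of 808 on the rest of the chromosome, or 17.6%. Among the members listed here, TUBB, NOTCH4, RXRB, CYP21A2 and MOG were at the floor in this stretch, and DDR1, GRM4, POU5F1, ITPR3 and RPS18 also lie there. Outside it, EEF1G, a subunit of the elongation factor complex, had 1, 0 and 0 counts, and 99.7% of its exon bases are shared with another gene on the same strand. EIF4A1, the helicase of translation initiation, had 230, 102 and 123 counts and is overlapped over 47.4% of its exon bases. Of the 158 list members at the floor, 5 lie in the chromosome 6 stretch and 3 are overlapped over at least 50% of their exons. For these genes a low value is not read as low expression.

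Over all 54 lists, 704 of 1077 matched members were expressed, or 65.4%, close to the 64.4% of all protein-coding genes. The lists differed: 83 of 203 lineage and tissue markers (40.9%), 233 of 429 receptors and channels (54.3%) and 233 of 308 transcription factors (75.6%) were expressed. Among all protein-coding genes 64.4% were expressed and 21.4% were at the floor, and these shares are the background for each list below. Without replicate 1, 718 of the 1077 members passed. Another 16 of the 1093 members had no matched row and carry no value here, among them ADORA3, ADRA2B, DACH1, KLF14, KLF18, LHX1, NEFL, NR2E3, ORAI1, PECAM1, RMRP, RN7SL1, RPPH1, SCX and SSTR3. Strand was not stated for the counting, so reads from a gene and its antisense partner cannot be told apart.

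Markers of nephron progenitors, the embryonic cells that form kidney tubules, were mostly present. Of 13 genes, 11 were expressed, or 84.6%, beside 64.4% of all protein-coding genes. At the floor were 0, beside 21.4%. The list's median of 3.64 CPM per kb compares with 2.69 for all protein-coding genes and 8.81 for the expressed ones. In bulk RNA, fewer cells with a transcript and less of it per cell cannot be told apart. EYA1, a transcriptional coactivator of progenitors, stood at 19.04, 16.5 and 14.9 CPM. SALL1, a zinc finger factor needed for kidney outgrowth, stood at 31.9, 18.8 and 22.5 CPM, and WT1, required for kidney and gonad formation, at 12.5, 11.04 and 9.56 CPM. By CPM, uncorrected for length, these 3 genes lay below the 33.0 CPM of the median expressed protein-coding gene in every library. The posterior HOX genes that pattern the metanephric kidney were higher per kilobase, with HOXA11 at 24.2 ± 4.08 CPM per kb and HOXD11 at 16.7 ± 0.856 CPM per kb. SIX2, which maintains the progenitor state, stood at 3.04, 4.85 and 4.84 CPM. PAX2, a key factor of early kidney, had 3.46, 4.32 and 4.37 CPM, and the secreted signal GDNF 2.41, 1.46 and 2.01 CPM. ITGA8 and MEOX1 did not reach 1 CPM in every library.

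Genes of later nephron stages were patchy. In early nephron epithelium, 5 of 8 matched genes were expressed: POU3F3 at 71.3, 78.4 and 72.9 CPM, IRX3 at 25.7, 30.8 and 31.5 CPM, JAG1, EMX2 and CDH6. PAX8, which usually accompanies PAX2 in renal epithelium, was near the detection limit at 0.210, 0.117 and 0.413 CPM. IRX1 had 0 counts in each library, which allows up to 0.157 to 0.177 CPM. Of 8 podocyte markers 3 were expressed, or 37.5%, and 2 were at the floor, beside 64.4% and 21.4% of all protein-coding genes. PODXL, the main sialomucin of podocytes, stood at 35.2, 23.3 and 20.9 CPM, while the slit diaphragm gene NPHS1 had 0.367, 0.0584 and 0.236 CPM.

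Genes of the differentiated tubule were mostly low or not detected. Of 12 proximal tubule genes, 4 were expressed, or 33.3%, beside 64.4% of all protein-coding genes. Of these 4, 1 gene, GGT1, lay above 10 CPM at 16.2, 20.98 and 20.7 CPM. GGT1's exons overlap another same-strand gene over 56.5%. At 2 CPM in each library 1 of the 12 passed, and at 1 TPM (CPM divided by length and rescaled to a common total) 2 passed, on the length of the canonical transcript or of all exons alike. The endocytic receptor LRP2 (megalin) had 3.72, 1.52 and 2.07 CPM and its partner CUBN 2.94, 1.69 and 2.36 CPM. The organic anion transporters SLC22A6 and SLC22A8 and the factor HNF4A were at the floor. In the loop and distal tubule list 0 of 8 genes were expressed, or 1 of 8 at 1 TPM on either length, and UMOD, the most abundant urinary protein gene of normal kidney, had 0 counts. In the collecting duct list 5 of 10 were expressed, led by GATA3, a factor of the nephric duct, at 15.001, 15.4 and 15.99 CPM and AQP3, a basolateral water channel, at 7.13, 6.37 and 7.26 CPM. AQP2, the vasopressin-regulated water channel, had 4, 0 and 0 counts and FOXI1, the intercalated cell factor, had 0.

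Neural progenitor factors were present for a subset. Of 12 genes 5 were expressed, or 41.7%, and 5 were at the floor, beside 64.4% and 21.4% of all protein-coding genes. PAX6, which patterns eye and forebrain, stood at 76.8, 67.4 and 69.1 CPM (chr11:31806327-31839509, minus strand). SOX3 and SOX2, related SOXB1 factors of neuroectoderm, stood at 50.9, 67.4 and 73.5 CPM and 27.5, 35.6 and 30.2 CPM. The RNA-binding protein MSI1 stood at 61.6, 78.6 and 81.7 CPM and the intermediate filament NES at 11.96, 13.6 and 14.2 CPM. These 5 genes ranged from 11.96 to 81.7 CPM over all libraries. The third SOXB1 gene, SOX1, had 0 counts, and NEUROG1 and HES5 were at the floor.

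The neuron list had 11 of 16 matched genes expressed, a share of 68.8% beside 64.4% of all protein-coding genes. UCHL1, an abundant neuronal deubiquitinase, was the highest per kilobase at 77.1 ± 8.50 CPM per kb, with 75.2, 86.1 and 93.9 CPM. Next came ENO2, the neuronal enolase, at 67.98, 78.2 and 81.5 CPM. The neurofilament subunit NEFM had 81.6, 82.7 and 68.4 CPM and NEFH 18.99, 20.04 and 21.4 CPM, and the related INA 20.5, 19.2 and 20.4 CPM. All these values were close among the 3 libraries. MAP2, a dendritic microtubule protein, had 33.4, 35.5 and 30.3 CPM. Genes of mature or migrating neurons were not seen to the same extent: STMN2 had 0 counts, DCX had 0, 1 and 0 counts, and SNAP25, a synaptic fusion protein, stayed at 0.420, 0.467 and 0.472 CPM. TUBB3, the neuronal beta-tubulin, had 2.78, 2.22 and 1.95 CPM.

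Glial markers were sparse, with 2 of 9 expressed, or 22.2%, beside 64.4% of all protein-coding genes. MBP, the gene of myelin basic protein, had 18.99, 19.6 and 17.5 CPM, and its locus also encodes longer transcripts that are not restricted to myelin. OLIG2 had 2.78, 3.21 and 3.78 CPM. GFAP, the astrocyte filament, was between the limits at 0.734, 0.760 and 1.06 CPM. S100B had 0.787, 2.45 and 3.30 CPM and OLIG1 0.734, 1.05 and 1.12 CPM, both below 1 CPM in replicate 1 and above it in the other two libraries, so that 4 of 9 passed without replicate 1. At 1 TPM on all-exon length 4 passed as well.

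The chromaffin and adrenal lists were mostly at or near the floor. Of 11 chromaffin and sympathetic genes, 4 were expressed and 6 were at the floor. The defining genes of catecholamine synthesis, TH with 1, 3 and 0 counts and DBH with 0, 0 and 2 counts, were at the floor, as was the autonomic factor PHOX2A. Expressed members included GATA2 at 43.4, 47.3 and 45.9 CPM, the terminal enzyme PNMT at 2.36, 2.63 and 2.66 CPM and CHGA at 2.15, 1.58 and 2.48 CPM. CHGB was between the limits at 0.839, 0.876 and 0.826 CPM. Of 10 adrenal cortex genes 2 were expressed. CYP11A1, which makes pregnenolone from cholesterol, had 3.78, 5.20 and 7.97 CPM, lowest in replicate 1. NR0B1 (DAX1), a nuclear receptor of the adrenal and gonad, had 3.99, 5.02 and 5.19 CPM. The master factor NR5A1 (SF-1) was between the limits at 0.315, 0.760 and 0.708 CPM, and CYP11B1, CYP11B2, HSD3B2 and MC2R had 0 counts.

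Epithelial and mesenchymal markers were expressed side by side. Of 13 epithelial genes 11 were expressed, and of 14 mesenchymal genes 12. These shares were 84.6% and 85.7%, beside 64.4% of all protein-coding genes. KRT8, the type II keratin of simple epithelia, was the highest of the epithelial list per kilobase at 481 ± 112 CPM per kb (chr12:53290971-53343738, minus strand), with 636, 914 and 1023 CPM. Its partner KRT18 had 87.4, 138 and 144 CPM. VIM, the mesenchymal intermediate filament, had 494, 752 and 777 CPM, and 313 ± 72.6 CPM per kb. KRT8, KRT18 and VIM were all lowest in replicate 1.

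The adhesion genes of the 2 states differed in level. CDH2 (N-cadherin) had 92.6, 61.5 and 55.2 CPM and 17.4 ± 4.98 CPM per kb, while CDH1 (E-cadherin) had 3.88, 3.10 and 3.36 CPM and 0.717 ± 0.0829 CPM per kb. EPCAM, an epithelial adhesion molecule, had 50.04, 33.4 and 29.2 CPM. The splicing regulator ESRP2 had 77.3, 69.5 and 61.96 CPM and its paralogue ESRP1 1.68, 1.64 and 1.89 CPM. FN1, which encodes fibronectin of the extracellular matrix, had 325, 143 and 132 CPM, more than 1.5-fold higher in replicate 1. The repressors of epithelial genes TWIST1 at 28.01, 35.9 and 34.3 CPM, ZEB2 at 29.5, 21.6 and 17.2 CPM and ZEB1 at 23.9, 15.9 and 10.8 CPM were expressed, and ZEB1 was highest in replicate 1. GRHL2, an activator of epithelial genes, was between the limits at 0.262, 0 and 0.0590 CPM, and the fibroblast surface gene THY1 was at the floor.

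Lists of other tissues had few expressed members. The endothelial list had 1 of 8 matched genes expressed, VWF at 1.36, 2.28 and 2.12 CPM, and 2 of 8 passed without replicate 2 and 0 of 8 at 1 TPM on either length. CDH5, TEK and TIE1, which define endothelium, were at the floor. The blood list had 1 of 11 expressed, CD14 at 2.41, 1.87 and 1.59 CPM, or 2 of 11 without replicate 2, and PTPRC (CD45) had 3, 0 and 0 counts. Of 8 hepatocyte genes 0 were expressed, and the albumin gene ALB had 1, 0 and 1 counts. The counts of PTPRC and ALB lay within the floor of 3 counts in each library.

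Muscle, pluripotency and germ-line lists each held a few exceptions. In the muscle list NKX2-5, a cardiac homeobox factor, had 44.3, 56.9 and 57.8 CPM, and MYH3, the embryonic myosin heavy chain, had 11.2, 9.23 and 10.2 CPM. The other 8 of 10 were not expressed, and MYOG had 0 counts. In the pluripotency list DNMT3B, a de novo DNA methyltransferase, had 54.03, 54.2 and 52.3 CPM, level over the libraries, and LIN28B, an inhibitor of let-7 processing, had 48.7, 26.3 and 17.998 CPM, highest in replicate 1. NANOG had 0 counts, and POU5F1, in the chromosome 6 stretch, had 1.10, 1.52 and 1.24 CPM. Of 11 germ-line and cancer-testis genes, PRAME alone was expressed, at 3.25, 7.65 and 8.08 CPM.

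**Figure D3:**
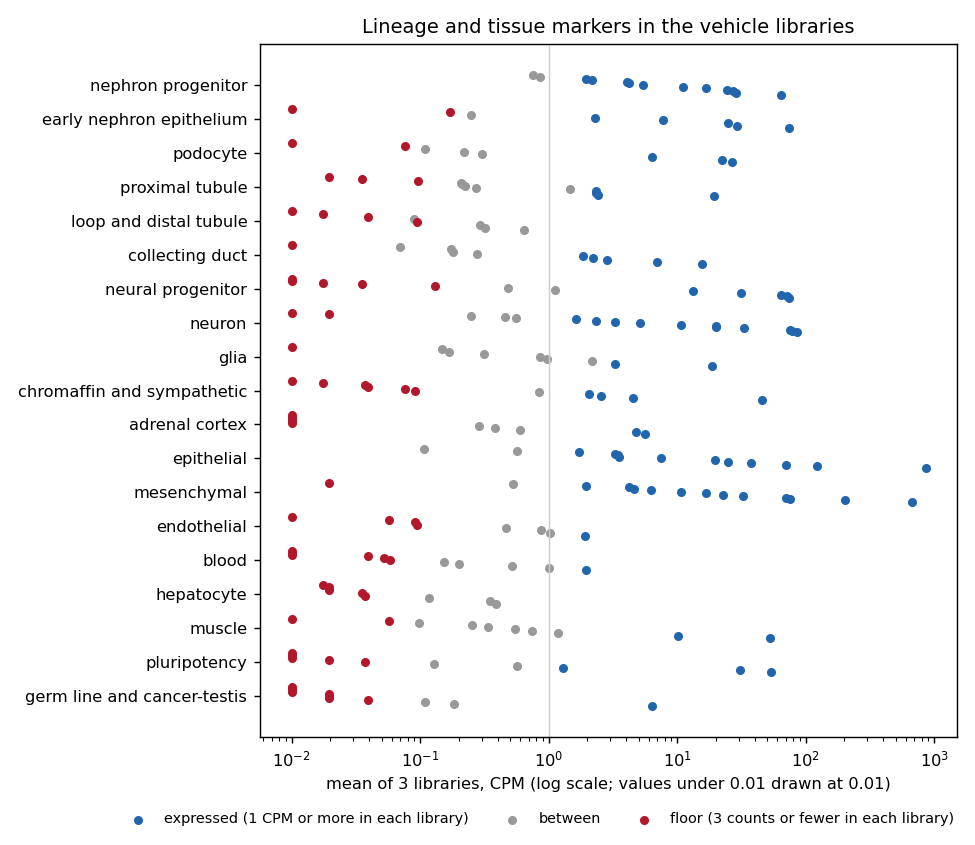
Mean CPM over 3 control libraries (horizontal axis, log scale, values under 0.01 drawn at 0.01) for each matched member of 19 lineage and tissue lists (rows), coloured by whether the gene was expressed, between or at the floor. KRT8 and VIM are the rightmost points, and the loop and distal tubule and hepatocyte rows hold 0 expressed genes.

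Receptors carry signals from outside the cell, and they are described here by class from membrane kinases to ion channels. Receptor tyrosine kinases, which bind growth factors and guidance ligands, were expressed in 38 of 54 cases. By this limit of 1 CPM the share, 70.4%, was near the 64.4% of all protein-coding genes. At 1 TPM on canonical length 27 of the 54 passed, while the number of all expressed genes went from 14475 to 14757. PTK7, a pseudokinase of planar polarity, was the highest per kilobase at 31.2 ± 3.79 CPM per kb, with 150.4, 122 and 123 CPM. The ephrin receptor EPHB4 had 118, 101 and 104 CPM, and ERBB2, the ligandless partner of the EGF receptor family, had 116, 106 and 106 CPM. Per kilobase, ERBB2 at 23.98 ± 1.20 CPM per kb exceeded EGFR at 1.27 ± 0.522 CPM per kb, ERBB3 at 1.28 ± 0.0805 CPM per kb and ERBB4 at 0.899 ± 0.213 CPM per kb. EGFR itself had 18.5, 9.82 and 9.32 CPM.

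Among growth factor receptors, FGFR1 had 104, 73.9 and 72.7 CPM. FGFR2, FGFR3 and FGFR4 were expressed too, and FGFR4 had 19.9, 14.4 and 17.6 CPM. The insulin-like growth factor receptor IGF1R had 152, 82.8 and 73.8 CPM and the insulin receptor INSR 35.9, 23.7 and 18.4 CPM. Both were more than 1.5-fold higher in replicate 1, as were 10 of 42 kinases with a mean of at least 1 CPM, beside 10.7% of all such genes. The kinases at that level have a median canonical length of 5312 nt. Their median log2 ratio of replicate 1 over the others was 0.44, and 0.19 after subtraction of the length class median. The lymphatic receptor FLT4 (VEGFR3) had 56.8, 67.2 and 67.9 CPM, while the main endothelial receptor KDR was between the limits and TEK, TIE1 and MUSK were at the floor. The neurotrophin receptor NTRK2 had 2.94, 2.75 and 1.48 CPM.

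G protein-coupled receptors were expressed in 33 of 100 cases, with 34 at the floor, against 64.4% and 21.4% of all protein-coding genes. The chemokine receptor CXCR4 was the highest per kilobase at 15.2 ± 1.30 CPM per kb, with 27.6, 25.2 and 23.3 CPM. The protease-activated receptors F2RL1 and F2R had 59.1, 34.1 and 28.3 CPM and 42.96, 27.9 and 21.01 CPM, both more than 1.5-fold higher in replicate 1. The adenosine receptor ADORA2B had 14.2, 15.4 and 18.9 CPM. 

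Receptors for lysophospholipids were expressed with the exceptions of LPAR4 and S1PR4, which were at the floor. LPAR2 had 16.5, 19.3 and 15.5 CPM, LPAR1 14.4, 9.99 and 7.14 CPM and S1PR3 9.28, 6.25 and 7.55 CPM. The prostaglandin receptors PTGER2 and PTGER4 had 11.9, 12.97 and 12.4 CPM and 8.65, 5.20 and 5.61 CPM. Both signal through cyclic AMP. P2RY11, a purine receptor, had 14.9, 17.1 and 15.5 CPM, but 55.9% of its exon bases overlap another same-strand gene.

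Several amine and peptide receptors that are often transfected into these cells were low or not detected. The muscarinic receptor CHRM3 had 5.56, 3.33 and 4.31 CPM, whereas CHRM1, CHRM2 and CHRM5 were at the floor. The beta-adrenergic receptor ADRB1 had 1.36, 1.29 and 1.12 CPM, and ADRB3 had 0 counts. The dopamine receptor DRD4 had 9.49, 12.6 and 13.9 CPM and the alpha-adrenergic receptor ADRA2C 12.6, 12.2 and 15.99 CPM. OPRM1, the mu opioid receptor, HTR2A, a serotonin receptor, and AGTR2, an angiotensin receptor, had 0 counts in each library. The angiotensin receptor AGTR1, at 0.210, 0.234 and 0.236 CPM, and the incretin receptor GLP1R, with 0, 1 and 0 counts, were also not expressed by the limit used.

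Nuclear receptors are transcription factors switched by small lipophilic ligands. Of 47 matched genes 33 were expressed, or 70.2%, beside 64.4% of all protein-coding genes. NR2F6, an orphan receptor, was the highest per kilobase at 105 ± 17.1 CPM per kb. NR1H2 (LXR beta), an oxysterol receptor, had 98.3, 135 and 146 CPM. The retinoid receptors RARA and RXRA had 53.97, 71.99 and 66.4 CPM and 77.2, 88.9 and 86.2 CPM. PPARG, the fatty acid receptor of adipocytes, had 20.2, 24.7 and 25.8 CPM, and the glucocorticoid receptor NR3C1 had 94.05, 67.95 and 55.6 CPM. The oestrogen receptor ESR1 was between the limits at 0.577, 0.117 and 0.177 CPM.

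Receptors of developmental pathways were nearly complete. Of 20 Wnt and Hedgehog receptors 19 were expressed, or 95%, beside 64.4% of all protein-coding genes. SMO, the Hedgehog signal transducer, was level at 87.4, 91.6 and 90.5 CPM. The Wnt coreceptor LRP5 had 105, 79.1 and 80.4 CPM and LRP6 47.3, 24.8 and 16.9 CPM, and LRP6 was more than 1.5-fold higher in replicate 1. Of 10 frizzled receptor genes 9 were expressed, among them FZD8 at 7.13 ± 1.32 CPM per kb and FZD3 at 1.39 ± 0.446 CPM per kb, and FZD10 stayed between the limits. LGR5, a stem cell receptor for R-spondins, had 22.2, 11.9 and 8.50 CPM.

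For Notch, which signals between neighbouring cells, 8 of 9 receptor and ligand genes were expressed. NOTCH2 had 95.2, 40.2 and 32.6 CPM, NOTCH3 62.1, 49.3 and 47.6 CPM and NOTCH1 27.8, 17.2 and 17.29 CPM. NOTCH2 was the most different among libraries. The ligand JAG2 had 54.8, 46.5 and 50.9 CPM. In the TGF-beta and BMP family 11 of 14 were expressed, led per kilobase by the activin receptor ACVR1B at 11.4 ± 2.30 CPM per kb. BMPR2 had 105, 59.4 and 51.3 CPM and TGFBR2 25.3, 14.7 and 15.2 CPM. Of 13 members with a mean of at least 1 CPM, 7 were more than 1.5-fold higher in replicate 1, beside 10.7% of all genes. The median canonical length of the 13 was 5580 nt. Their median log2 ratio of replicate 1 over the others was 0.76, and 0.36 after subtraction of the length class median.

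Cytokine and death receptors were expressed in 24 of 38 cases, or 63.2%, near the 64.4% of all protein-coding genes. TNFRSF12A, the receptor for TWEAK, was the highest per kilobase at 79.6 ± 14.6 CPM per kb. The TRAIL receptor TNFRSF10B had 113, 93.02 and 90.3 CPM, and the TNF receptor TNFRSF1A had 38.3, 38.6 and 35.997 CPM, while TNFRSF1B was at the floor. Both chains of the interferon gamma receptor, IFNGR1 and IFNGR2, and both of the type I interferon receptor, IFNAR1 and IFNAR2, were expressed. IL6ST (gp130), the shared chain of the interleukin-6 family, had 42.3, 23.8 and 18.5 CPM. The haematopoietic chains IL2RA, CSF2RB and CSF2RA were at the floor.

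Sensors of innate immunity were mostly low, with 9 of 24 expressed, or 37.5%, and 9 at the floor, beside 64.4% and 21.4% of all protein-coding genes. The double-stranded RNA kinase EIF2AK2 (PKR) had 119.5, 83.6 and 77.95 CPM. STING1, the adaptor for cyclic dinucleotides, had 14.1, 16.5 and 16.8 CPM, but the enzyme that makes its ligand, CGAS, stayed below 1 CPM at 0.682, 0.760 and 0.472 CPM. The RNA helicases RIGI and IFIH1 had 4.88, 4.97 and 4.72 CPM and 5.87, 4.67 and 3.25 CPM, and their adaptor MAVS had 60.8, 38.9 and 35.3 CPM. No Toll-like receptor was expressed by the limit used: TLR3 had 0.682, 0.467 and 0.531 CPM, TLR4 had 3.04, 1.05 and 0.944 CPM, and TLR2 and TLR7 had 0 counts. TLR9 shares 99.7% of its exon bases with another same-strand gene and NLRP3 66.0%, so their floor values are uncertain.

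Of 26 integrins, the receptors for extracellular matrix, 16 were expressed, or 61.5%, near the 64.4% of all protein-coding genes. At 1 TPM on either length 12 of the 26 passed. ITGB1, the common beta chain, led per kilobase at 37.7 ± 15.9 CPM per kb, with 209, 113 and 101 CPM. ITGAV had 98.2, 31.03 and 24.8 CPM and its partner ITGB5 53.5, 45.3 and 44.1 CPM. ITGA5, the fibronectin-binding chain, had 39.5, 31.96 and 31.3 CPM. Of 17 integrins with a mean of at least 1 CPM, 7 were more than 1.5-fold higher in replicate 1, beside 10.7% of all genes. The median canonical length of the 17 was 4663 nt. Their median log2 ratio of replicate 1 over the others was 0.33, and 0.30 after subtraction of the length class median. The leukocyte chains ITGAL and ITGAM were between the limits.

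Ion channels are of interest because the line is used to record from introduced channels. Of 23 sodium and calcium channel genes of the voltage-gated family, 9 were expressed. CACNA1H, a T-type calcium channel, was the highest per kilobase at 5.59 ± 0.353 CPM per kb, with 49.3, 44.6 and 43.9 CPM, although its mean ± SD overlapped that of the next gene. Among sodium channel pore genes, SCN8A had 9.91, 4.79 and 2.95 CPM and SCN9A 4.67, 3.21 and 2.30 CPM, whereas SCN10A and SCN3A had 0 counts and SCN1A had 0, 1 and 0. With a limit of 1 TPM in each library, 5 genes passed on all-exon length and 4 on canonical length. The median canonical length of the members with a mean of at least 1 CPM was 8559 nt.

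Ligand-gated channels were expressed in 12 of 40 cases. ASIC1, an acid-sensing channel, had 60.9, 51.2 and 50.9 CPM and P2RX4, an ATP-gated channel, 20.2, 22.9 and 27.9 CPM, while P2RX7 was between the limits. The nicotinic receptor subunits CHRNB1 and CHRNA5 had 11.3, 17.5 and 16.6 CPM and 18.9, 10.5 and 10.3 CPM. Among AMPA receptor genes GRIA2 had 0 counts. The list as a whole lay below the 64.4% of all protein-coding genes.

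In the group of TRP, Piezo and calcium store channels 21 of 34 were expressed, or 13 of 34 at 1 TPM on canonical length. The first share was 61.8%, near the 64.4% of all protein-coding genes. The store sensor STIM1 was the highest per kilobase at 24.4 ± 2.45 CPM per kb, with 113, 93.8 and 98.3 CPM. PIEZO1, a mechanically gated channel, had 247, 156 and 153 CPM and 22.9 ± 6.63 CPM per kb, against 0.285 ± 0.0922 CPM per kb for PIEZO2. ORAI2, a subunit of the store-operated channel, had 107, 117 and 120.1 CPM. TRPM7 had 42.1, 21.6 and 20.4 CPM, more than 1.5-fold higher in replicate 1. TRPV1, the capsaicin receptor, was between the limits at 0.420, 0.351 and 0.354 CPM, and TRPM8, the menthol receptor, had 4, 1 and 2 counts.

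**Figure D4:**
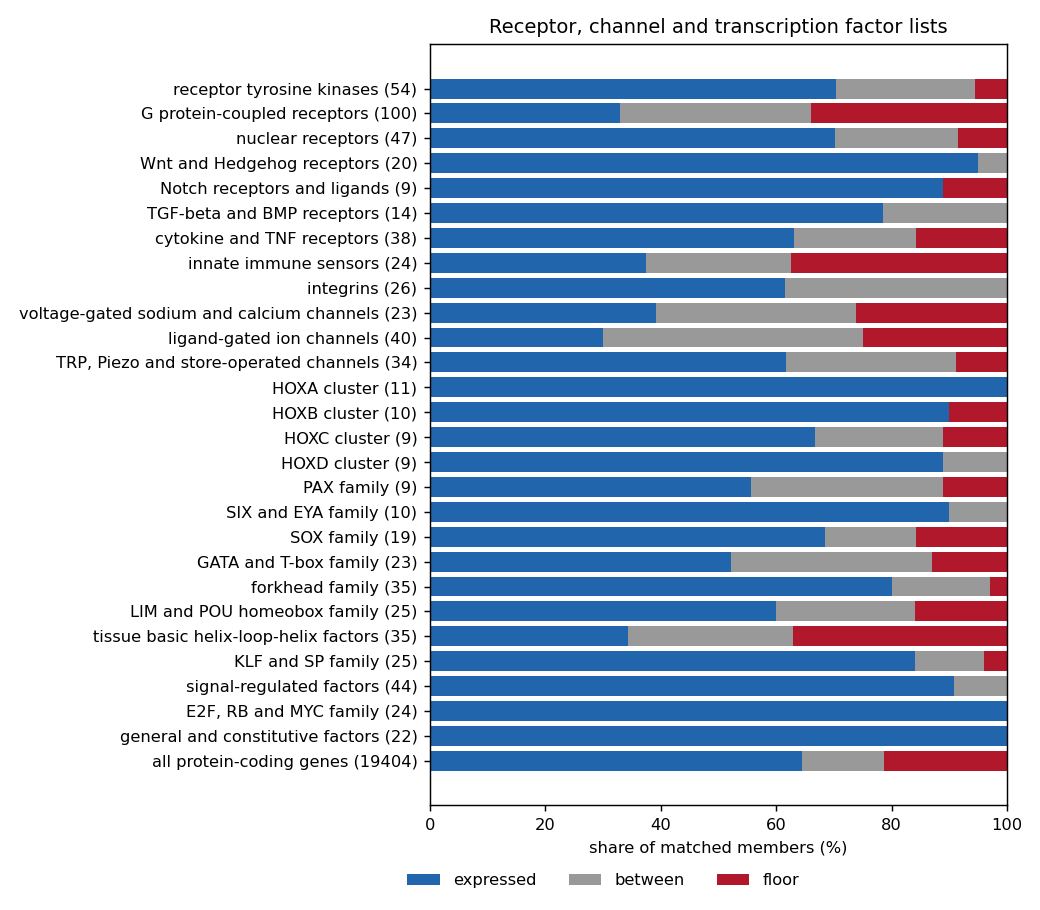
Share of matched members (horizontal axis, percent) that were expressed, between or at the floor in each receptor, channel and transcription factor list (rows, number of matched members in parentheses), with all protein-coding genes as the last row. The E2F, RB and MYC family, the general factors and the HOXA cluster are fully expressed, while the ligand-gated channels reach 12 of 40 and the G protein-coupled receptors 33 of 100.

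Transcription factors set which genes a cell can use, and the HOX genes among them record position along the body axis. Their paralogue number follows their order in the cluster, from anterior (low) to posterior (high). Of 39 HOX genes 34 were expressed, or 87.2%, beside 64.4% of all protein-coding genes. These were 11 of 11 in HOXA, 9 of 10 in HOXB, 6 of 9 in HOXC and 8 of 9 in HOXD. HOXA10 was the highest per kilobase at 59.2 ± 0.843 CPM per kb, with 151, 152 and 148 CPM (chr7:27210224-27219880, minus strand). HOXA9 had 81.8, 83.3 and 81.4 CPM and HOXB9 82.6, 109.9 and 103 CPM. In HOXD the maximum was HOXD10 at 24.7 ± 6.83 CPM per kb, and in HOXC it was HOXC9 at 18.8 ± 4.04 CPM per kb. In each of the 4 clusters the highest member was thus a gene of paralogue group 9 or 10, although in HOXB the mean ± SD of HOXB9, 38.1 ± 5.51 CPM per kb, overlapped that of HOXB2, 34.8 ± 7.12 CPM per kb.

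Anterior and most posterior HOX genes were uneven. HOXB2 had 45.7, 60.2 and 69.5 CPM, while HOXB1 had 0 counts. HOXD1 had 1.57, 3.51 and 2.77 CPM. The most posterior group 13 was expressed in all 4 clusters, with HOXA13 at 27.2, 25.7 and 22.8 CPM, HOXD13 at 16.5, 20.9 and 22.01 CPM, HOXC13 at 11.6, 17.1 and 14.3 CPM and HOXB13 at 5.30, 10.2 and 11.5 CPM. HOXC12 was at the floor and HOXD12 between the limits. HOXC11 and HOXC5 were between. Of 34 HOX genes with a mean of at least 1 CPM, 5 were lower and 1 was higher in replicate 1 by more than 1.5-fold, beside 10.0% and 10.7% of all genes. Antisense transcripts run through these clusters, and their reads cannot be separated from the HOX genes here.

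**Figure D5:**
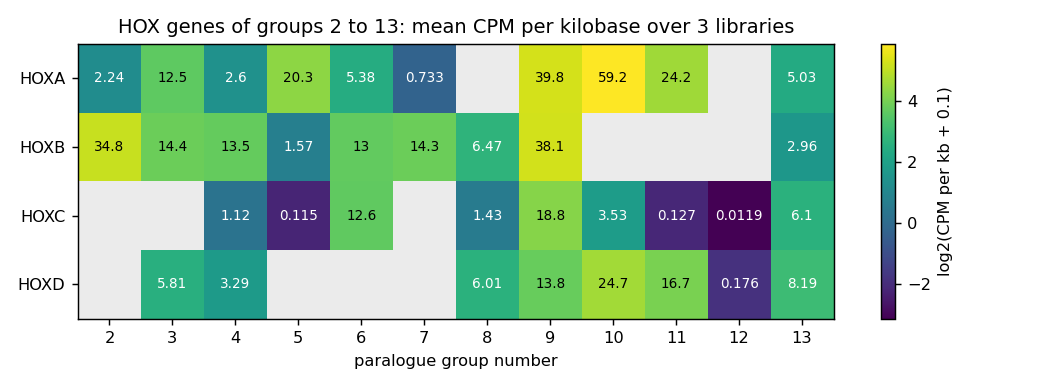
Mean CPM per kilobase over 3 control libraries for the HOX genes of paralogue groups 2 to 13, by cluster (rows) and paralogue group number (columns), coloured on a log2 scale with 0.1 added, with the value printed in each cell and grey where no gene was listed. HOXA10, HOXA9 and HOXB9 have the highest values.

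Paired box genes and the sine oculis and eyes absent families (SIX2 and EYA1 among them) act in the primordia of several organs, and both families were partly or largely expressed. Of 9 PAX genes 5 were expressed, or 55.6%, beside 64.4% of all protein-coding genes. PAX6 was highest, then PAX3, a neural crest and muscle precursor factor, at 17.31, 19.7 and 15.2 CPM. PAX9 had 9.02, 11.5 and 9.80 CPM. PAX7 had 4.51, 5.08 and 4.07 CPM. PAX4 had 0 counts. Of 10 sine oculis and eyes absent genes 9 were expressed, or 90%, beside 64.4% of all protein-coding genes. EYA2 was the highest per kilobase at 12.1 ± 2.35 CPM per kb, EYA4 had 38.5, 27.9 and 20.4 CPM and SIX4 18.7, 14.3 and 13.04 CPM.

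SOX factors, which share an HMG box, were expressed in 13 of 19 cases, or 68.4%, near the 64.4% of all protein-coding genes. SOX4, of the SOXC group, was the highest per kilobase at 79.4 ± 7.02 CPM per kb, with 415, 396 and 349 CPM, and its relative SOX11 had 45.6, 36.8 and 31.3 CPM. SOX9, a factor of cartilage, gonad and duct progenitors, had 24.3, 30.6 and 28.9 CPM. SOX12 had 44.1, 63.9 and 67.04 CPM, lowest in replicate 1. The neural crest and glial SOX10 was between the limits, and the endodermal SOX17 had 0, 2 and 0 counts. SOX14 had 0 counts.

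GATA and T-box factors were expressed in 12 of 23 cases, or 52.2%, beside 64.4% of all protein-coding genes. GATA6 and GATA4, factors of heart, gut and gonad, had 33.7, 32.02 and 28.7 CPM and 27.4, 33.3 and 28.03 CPM. The haematopoietic GATA1 was between the limits. TBX1 had 36.4, 51.5 and 49.7 CPM, TBX2 37.5, 40.4 and 41.7 CPM and TBX18, expressed in embryonic ureter mesenchyme, 48.6, 35.9 and 30.9 CPM. TBX5 and TBX22 had 0 counts. Of the GATA genes, GATA2, GATA3, GATA4, GATA5 and GATA6 were expressed, and GATA5 had 1.05, 2.45 and 2.01 CPM.

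Forkhead factors were expressed in 28 of 35 cases, or 80%, beside 64.4% of all protein-coding genes. FOXM1, which drives mitotic genes, was the highest per kilobase at 58.5 ± 3.64 CPM per kb, with 196, 221 and 206 CPM. FOXK2 had 177, 168 and 155 CPM and FOXC1 96.4, 103 and 94.7 CPM. FOXA1, an endodermal pioneer factor, had 48.3, 57.3 and 55.2 CPM. FOXD1, a marker of kidney stroma, had 1.21, 1.93 and 1.18 CPM, but its exons overlap another same-strand gene over 79.0%. Of 29 forkhead genes with a mean of at least 1 CPM, 4 were lower and 0 higher in replicate 1 by more than 1.5-fold, beside 10.0% and 10.7% of all genes.

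LIM and POU homeobox genes were expressed in 15 of 25 cases, or 60%, near the 64.4% of all protein-coding genes. POU3F3, already described with the nephron genes, led the list. ISL2 had 23.1, 27.6 and 25.3 CPM, and POU4F1, a sensory neuron factor, had 46.1, 35.4 and 31.3 CPM. POU3F2, a neural factor, had 30.2, 24.7 and 19.2 CPM. LMX1B, which acts in limb, kidney and midbrain, had 24.5, 26.9 and 27.6 CPM. POU1F1, the pituitary factor, LMX1A and POU3F4 had 0 counts.

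Tissue-specific basic helix-loop-helix factors contrasted with these families, with 12 of 35 expressed and 13 at the floor. The stress and clock factor BHLHE40 was the highest per kilobase at 63.9 ± 5.68 CPM per kb. MESP1, a mesoderm factor, had 11.5, 19.9 and 21.1 CPM, lower in replicate 1. The neurogenic factors NEUROD1, NEUROD4, NEUROD6 and ATOH1, and the myogenic factors MYF5 and MYF6, were at the floor. NEUROG2 had 0.892, 1.29 and 1.18 CPM, just below the limit in 1 library.

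KLF and SP zinc finger factors were expressed in 21 of 25 cases, or 84%, beside 64.4% of all protein-coding genes. SP2 was highest per kilobase at 23.7 ± 3.48 CPM per kb and KLF10 next at 21.4 ± 0.361 CPM per kb. KLF4 had 12.8, 12.2 and 10.2 CPM and the erythroid KLF1 was between the limits. Effectors of signalling pathways were expressed in 40 of 44 cases. CTNNB1 (beta-catenin), the effector of Wnt signalling, was the highest per kilobase at 108 ± 13.2 CPM per kb, with 439, 344 and 403 CPM. The NF-kappaB subunit RELA had 119, 155 and 162 CPM, SMAD3 had 117, 98.3 and 95.6 CPM, and YAP1 and its partner TEAD1 had 88.6, 77.01 and 70.4 CPM and 116, 63.9 and 45.5 CPM. TEAD1 was more than 1.5-fold higher in replicate 1. IRF3 had 88.8, 110.3 and 123 CPM, while IRF4, IRF9, STAT4 and STAT5A did not reach 1 CPM in every library.

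Cell cycle factors were complete, with 24 of 24 genes of the E2F, RB and MYC family expressed. TFDP1, the dimer partner of E2F proteins, was the highest per kilobase at 144 ± 8.71 CPM per kb. E2F1, bound by the retinoblastoma protein, had 137, 173 and 192 CPM, and RB1 itself had 55.7, 47.4 and 37.9 CPM. MYC had 99.8, 101 and 111 CPM and 27.96 ± 1.71 CPM per kb, against 3.16 ± 0.302 CPM per kb for MYCL and 1.80 ± 0.648 CPM per kb for MYCN. The mean ± SD of MYC lay above both relatives. All 22 general and constitutive factors were expressed as well. They included POLR2A, the largest subunit of RNA polymerase II, at 498, 377 and 408 CPM, TBP at 33.6, 33.2 and 35.8 CPM, CTCF at 109.7, 94.1 and 95.2 CPM and YY1 at 275, 262 and 258 CPM. None of TBP, CTCF and YY1 was apart in replicate 1 by more than 1.5-fold.

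The spread among the 3 libraries depended on level and on replicate 1. The median coefficient of variation (CV, SD over mean) over the 15352 genes with a mean of at least 1 CPM was 17.4%, and 1915 of them, or 12.5%, had a highest library more than 2-fold above the lowest. Without replicate 1 the median CV was 6.96% and 178 genes were past 2-fold. Without replicate 3 the number past 2-fold was 929. By level, the median CV was 26.4% at 1 to 3 CPM, 13.8% at 100 to 300 CPM and 25.9% among the 86 genes at 1000 CPM or more. Replicates 2 and 3 were the closest pair, with a median absolute log2 ratio of 0.14 against 0.35 for replicates 1 and 2 and 0.42 for replicates 1 and 3. In a principal component analysis, 86.4% of the variance lay along one axis, on which replicate 1 scored 42.4 and replicates 2 and 3 scored -14.01 and -28.4.

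Most of the named genes with the widest range were highest in replicate 1. Among rows with a mean of at least 20 CPM, 4 of the 10 widest had no matched symbol. Their ranges went from 3.43-fold to 130-fold, and which library was highest in these 4 rows is not reported here. Of the 6 with a symbol, CCN2 (CTGF), a matricellular protein and a known target of YAP, had 182, 46.3 and 31.98 CPM, a 5.71-fold range (chr6:132269316-132272512, minus strand). Its log2 ratio of replicate 1 over the others was 2.22, and 2.39 after subtraction of the length class median. ITGAV, given above with the integrins, had a 3.95-fold range. NCR3LG1, a ligand of an activating receptor of natural killer cells, had 43.3, 15.1 and 10.5 CPM, and the chloride cotransporter SLC12A2 had 40.9, 18.8 and 11.9 CPM. VPS13A, a lipid transfer protein, had 67.03, 26.8 and 17.35 CPM. These 5 were each highest in replicate 1 and lowest in replicate 3. LGALS1, a galectin with a short transcript of 528 nt, went the other way with 9.70, 25.3 and 33.1 CPM.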

How the data were processed

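The authors deposited 1 table of raw counts per gene for all libraries; the columns of the 3 control libraries were used and the 3 minocycline columns were not. The genome build was hg19 per the submitters' processing notes, while the aligner, the counting program, the gene annotation and the strand setting are not given in the sources used here. Libraries were made with an RNA kit from column-purified, DNase-treated RNA, per the labels' protocols. Gene symbols were matched for 55538 of 57820 rows, which held 99.1% of the counts, through a reference table of names; rows without a symbol held 0.868%. Gene type, position and transcript length came from GENCODE on GRCh37, with the canonical transcript as the length and all annotated exons where none was flagged.

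Counts were scaled to CPM with TMM factors from edgeR 4.0.16 in R 4.3.3, computed on the 3 control libraries and rows with a total above 0. Log2 ratios between libraries were taken from CPM without this kind of offset, and 0.5 CPM was added only before the logarithms of the principal component analysis. The 3 libraries held 17395826 to 17835756 counts, so that 3 counts equalled 0.157 to 0.177 CPM. Intervals (Wilson, 95%) and floors cover counting error only, since reads are not independent molecules. No test was run, because 1 group was described. The calls were tested on simulated counts with known states. The simulation held no length-linked shift, so it does not show how the calls behave with that of replicate 1. The text names the 20 genes with the highest mean CPM, the 10 protein-coding genes with the highest CPM per kilobase, members of the lists as examples, and, among genes with a mean of at least 20 CPM, the 10 with the widest range; a few of these genes are not reported here. The members and lists were chosen with earlier results of these data known. The alternatives tried were other scalings, other limits, TPM, and leaving out each library.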

Additional observations from a re-analysis of the deposited data

How the results depend on the processing

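The number of expressed genes was 13085 to 16028 over all alternatives, against 14475, and 634 to 758 of the 1077 list members were expressed, against 704. The share held by the 10 most abundant genes and the number of genes holding 50% of the counts moved by less than 1 SD. The number of genes at the floor, 7983 of 30318, was 12387 at 10 counts or fewer. Over all 57820 rows it was 35485, against 27502 with a limit of 0 counts in each library. The median CV, 17.4%, was 17.6% with total count scaling, 15.015% at a mean of 10 CPM or more and 33.8% with no filter on low counts, and leaving out each library gave 6.96% to 20.6%. The number of genes past a 2-fold range, 1915, was 705 at a mean of 10 CPM or more and 14681 with no filter, and leaving out each library gave 178 to 1600. The cause of these shifts was not tested, apart from the set of genes that each filter keeps. The limit of 1 TPM on canonical length was chosen after seeing the data; it moved the count of expressed members by more than 1.5 times in 5 of 54 lists. No paired analysis was possible because 1 group was described and the results come from no test. Depth limits a level of 0 counts to at most 0.157 to 0.177 CPM. Values for genes in the chromosome 6 stretch, for overlapping genes and for genes with near-identical copies depend on counting rules that are not given in the sources used here.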
